A study of Mus musculus with 6 samples.

Results

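The AMPA receptor subunits Gria1, Gria2, Gria3 and Gria4 and the kainate receptor subunits Grik1, Grik2, Grik3, Grik4 and Grik5 were examined by gene symbol in retinal RNA-seq of NMDA-injured mice. These are 9 of the 31867 genes with a named transcript in any of the files, and 8 of the 9 had a transcript in all of them, as did 25935 genes in all. Retinas came from wild type mice labelled C57BL/6 (C57BL/6J in the study's methods) and postnatal week 5. All mice received NMDA, an agonist of another class of glutamate receptor that damages retinal ganglion cells, into the vitreous. After 2 days, the mice behind 3 libraries received recombinant SCF (stem cell factor, the ligand of the receptor c-kit) by the same route, and those behind the 3 control libraries received PBS. Retinas were collected 1 week later, and no uninjured retina was among these libraries. The number of mice behind a library is not given in the sources used here, so p-values measure the spread between libraries, which may be technical in part.

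AMPA and kainate receptors are ion channels opened by glutamate, each built of a ring of subunits. AMPA receptors carry most fast excitatory transmission in the retina, in OFF bipolar, horizontal, amacrine and ganglion cells, and the edited Gria2 subunit keeps calcium out of the channel. Of the kainate receptor subunits, Grik1, Grik2 and Grik3 form channels on their own, and Grik4 and Grik5 need one of these as a partner. OFF bipolar cells, which receive glutamate from photoreceptors, use kainate receptors containing Grik1.

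The libraries differed in ways that touch every value below. The authors deposited FPKM (fragments scaled for transcript length and sequencing depth) for single transcripts. The values correspond to 3404331 to 4440575 counted fragments in a library, 14.1 to 18.2% of its clean read pairs. Not all libraries were quantified over the same transcripts. The 3 NMDA + SCF libraries share a list, called A here, with control replicate 1, and control replicates 2 and 3 share another, called B. The first principal component, with 53.3% of the variance, separated the libraries by list. Levels are therefore given as FPKM summed over the transcripts in both lists, and the 4 list A libraries are also given on their own, where 1 control library allows no test. The summed FPKM of 5 lens markers was 23.4 to 294 in NMDA + PBS and 441 to 9024 in NMDA + SCF, with 5 of 5 at an unadjusted p of at most 0.05 and none of them listed at 0 throughout. That of 5 rod markers was 550 to 746 and 886 to 1034, with 2 of 5 higher at that threshold. The sum of 3 markers listed for OFF bipolar cells was 111 to 136 and 141 to 152, with 0 of 3 higher. Nearly all of it was Cabp5, so the sum reads that gene and not the cell type. Vsx1 overlapped between the groups, at 0.464 to 0.852 and 0.693 to 1.30 FPKM. Lhx4 overlapped too, at 0.319 to 1.39 and 0.417 to 0.900 FPKM. The sum of 6 amacrine markers was 129 to 165 and 175 to 187, with 1 of 6 higher, and most of it was Slc32a1. The others (Tfap2a, Tfap2b, Slc6a9, Gad1 and Gad2) each overlapped between the groups, so the separation of the sum rests on Slc32a1. None of these 3 lists had a marker that was lower at that threshold. Of all genes tested, 4.33% were higher and 4.9% lower at it. Ganglion cell markers overlapped between the groups, at 227 to 464 in NMDA + PBS and 261 to 319 in NMDA + SCF, as did the other 9 marker lists. The ganglion cell, horizontal cell and corneal epithelium lists each had 1 marker that was lower at an unadjusted p of at most 0.05, and none higher. Among the ganglion cell markers, Slc17a6 followed the transcript list. It was at 5.90 and 8.74 FPKM in the list B controls, 0.142 in the list A control and 0.0 to 0.353 with SCF. In whole retina, fewer cells of a type and less RNA per cell cannot be told apart.

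The forms of these genes that the files list were often not the ones that encode a full subunit. Of the 58 transcripts annotated for the 9 genes, 27 appeared in either list and 21 in both. Of the 33 protein-coding ones, 8 were in both lists (24.2%, against 27.9% of the protein-coding transcripts of all genes). Gria2, Gria3 and Grik5 had no protein-coding transcript in either list, and the Grik3 coding transcript was in list A alone. Among all 17130 genes with an annotated protein-coding transcript and any listed one, 28.6% had none in both lists. A low value of Gria2 or Gria3 in these files is thus not a level of the coding mRNA.

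The 8 genes held 1507 fragments over the 6 libraries, of which 63.6% lay in protein-coding and 34.8% in retained intron transcripts, against 84.2% and 5.84% over all genes. All 329 Gria4 fragments, all 47 of Gria1 and all 32 of Grik4 were in protein-coding forms. Grik2 had 522 fragments in protein-coding and 305 in retained intron forms, and Grik5 had 144 in retained intron forms and 22 in a form annotated for nonsense-mediated decay. All 17 fragments of Gria2 and all 46 of Gria3 were in retained intron forms.

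**Figure D1:**
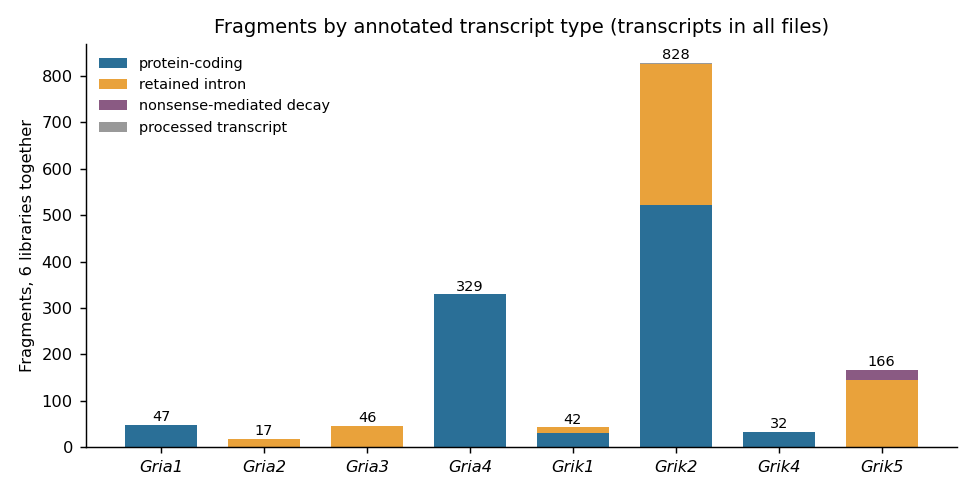
Fragments recovered for each subunit gene, summed over the 6 libraries (vertical axis, number of fragments) and stacked by annotated transcript type, for transcripts in all files. Grik2 has the most fragments with 828, and Gria2 with 17 and Gria3 with 46 have none in a protein-coding form.

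The sequences at the edges of these forms are shown because they set a short or intron-holding form apart from the full coding mRNA. They were read from GRCm38 at the GENCODE M21 positions, which all 27 listed transcripts of these genes matched. The first pair shows where the Gria4 forms part. Both lie on the minus strand of chromosome 9 and share the bases at chr9:4480178-4480207, in lower case. The capitals are the next bases of each, at chr9:4478820-4478852 in Gria4-203 and at chr9:4472186-4472218 in Gria4-202.
Gria4-203: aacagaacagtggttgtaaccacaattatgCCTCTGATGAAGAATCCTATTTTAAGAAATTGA
Gria4-202: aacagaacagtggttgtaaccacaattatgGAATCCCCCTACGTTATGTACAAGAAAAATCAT

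Gria4-203 keeps 1269 of the 2706 coding bases of the full form (46.9%), adds 30 coding bases of its own and ends in the stop codon TGA. It has 433 codons before the stop, against 902 in Gria4-202, also without the stop. The segments by which the subunit crosses the membrane are encoded downstream of this point, so the short form lacks them.

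The next set shows the border between exon and retained intron for the intron-holding forms of 3 genes, with exon bases in capitals. Grik2-203 begins within an intron (chr10:49240767-49240826, minus strand), of which it holds 2240 bases. Grik5-206 does likewise (chr7:25059064-25059123, minus strand), with 338 intron bases. Gria2-204 runs on from an exon into an intron (chr3:80707669-80707728, minus strand) whose first 440 bases it holds, and 2689 of its bases in all lie outside the exons of coding transcripts.
Grik2-203: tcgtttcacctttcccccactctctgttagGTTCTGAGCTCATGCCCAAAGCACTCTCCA
Grik5-206: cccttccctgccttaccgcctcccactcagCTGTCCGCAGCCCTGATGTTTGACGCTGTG
Gria2-204: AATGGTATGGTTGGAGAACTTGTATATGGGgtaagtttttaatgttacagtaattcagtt

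The subunits fell into an upper and a lower range of abundance. Over the 6 libraries, Grik5 averaged 8.07 ± 2.07 FPKM (SD, n = 6), Gria4 6.04 ± 1.97 and Grik2 5.68 ± 2.23. The order among these did not hold in every library, since Grik5 was above Gria4 in 4 of 6 and Gria4 above Grik2 in 3 of 6 (exact sign-flip permutation test, two-sided, adjusted p = 0.438 and 0.693 over 7 neighbouring pairs). Grik1 followed at 0.582 ± 0.332 FPKM, below Grik2 in 6 of 6 libraries (exact permutation p = 0.0313, the smallest that 6 libraries allow, adjusted p = 0.219). Gria3 averaged 0.483 ± 0.385, Gria1 0.369 ± 0.172, Gria2 0.365 ± 0.171 and Grik4 0.243 ± 0.0815 FPKM. Neighbours among these did not differ beyond their spread (adjusted p between 0.510 and 0.938).

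With every list A transcript counted, in the 4 libraries that use list A, Grik3 joined the upper group at 4.08 ± 0.474 FPKM (SD, n = 4), next to Grik2 at 4.28 ± 0.655. Gria2 rose in the order to 1.95 ± 0.648 FPKM, below Grik3 and above Grik1 in 4 of 4 libraries (exact permutation p = 0.125 for each, the smallest that 4 libraries allow). Of Gria2, 0.964 to 2.01 FPKM in these libraries came from Gria2-204, a retained intron form absent from list B.

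**Figure D2:**
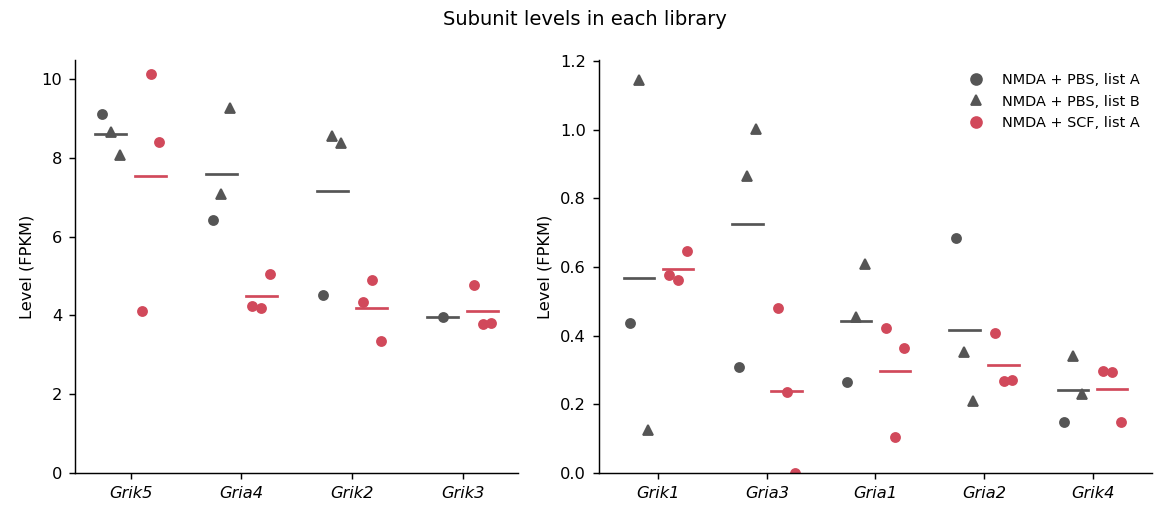
FPKM of each subunit in each library (vertical axes, separate scales), with NMDA + PBS in grey and NMDA + SCF in red, circles for list A and triangles for list B, and a line at the group mean. The 3 NMDA + SCF values of Gria4 lie below all 3 controls, and Grik3 is shown for the 4 list A libraries alone.

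Between NMDA + SCF and NMDA + PBS, none of the 8 subunits tested passed the study's thresholds (a fold of at least 2 and an adjusted p of at most 0.001), nor an adjusted p of 0.05. The background was the same, with 0.0% of 25202 genes called by either rule (limma, Benjamini-Hochberg adjusted). The study did report differentially expressed genes at its thresholds, from its own analysis, whose test its methods do not name. The limma fit did not repeat that analysis, so the absence of calls here is one of this fit. At an unadjusted p of at most 0.05, 1 of 8 subunits was lower and none was higher, against 4.9% of all genes lower and 4.33% higher. The log2 fold change was negative for 6 of 8, with a median of -0.20, against 50.9% of genes and a median of -0.01.

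Gria4, the most abundant AMPA receptor subunit in these files, gave the smallest p of the 8. Its level was 6.41, 7.09 and 9.27 FPKM in the NMDA + PBS libraries and 4.23, 4.18 and 5.05 FPKM in those given SCF, in the order of replicates 1, 2 and 3, which is kept for all values below. Every NMDA + SCF library was below every control, as for 6.45% of all genes. The means were 7.59 ± 1.496 and 4.49 ± 0.486 FPKM (SD, n = 3 each), a log2 fold change of -0.64 (SE 0.24) on the log2(FPKM + 1) scale by limma, with an unadjusted p = 0.0305 and an adjusted p = 0.536. These levels rest on 51, 67 and 99 fragments in the controls and 35, 34 and 43 with SCF. Within list A, where depths were close (3404331 to 3479957 counted fragments), the control had 55 fragments over all list A transcripts (exact 95% Poisson interval 41.4 to 71.6, counting error only). The NMDA + SCF libraries had 39, 39 and 45, with intervals reaching from 27.7 to 60.2. The control was above all 3, and its interval overlapped each of theirs. Gria4 stood at 4.18 FPKM in the NMDA + SCF library with a lens marker sum of 441, and at 4.23 and 5.05 FPKM where that sum was 4747 and 9024.

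Gria4-203, the short form, carried 98.2% of the summed Gria4 FPKM. It measured 6.41, 6.99 and 9.05 FPKM in the controls and 4.12, 4.18 and 4.82 with SCF (log2 fold change -0.65, SE 0.24, unadjusted p = 0.0258 and adjusted p = 0.591 by limma over 45261 transcripts). The full-length Gria4-204 had at most 5 fragments in a library, with 0.0 to 0.216 FPKM in the controls and 0.0 to 0.222 with SCF. Gria4-202, also full-length and in list A alone, had 4 fragments in the control and 4, 5 and 2 with SCF. The difference in Gria4 thus lay in the values assigned to the short form. Gria4-203 shares exons with the full-length forms, and how reads were divided among them is not given. Whether the difference belongs to the short form itself was therefore not tested. A difference in the full-length forms was not detectable at this depth.

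**Figure D3:**
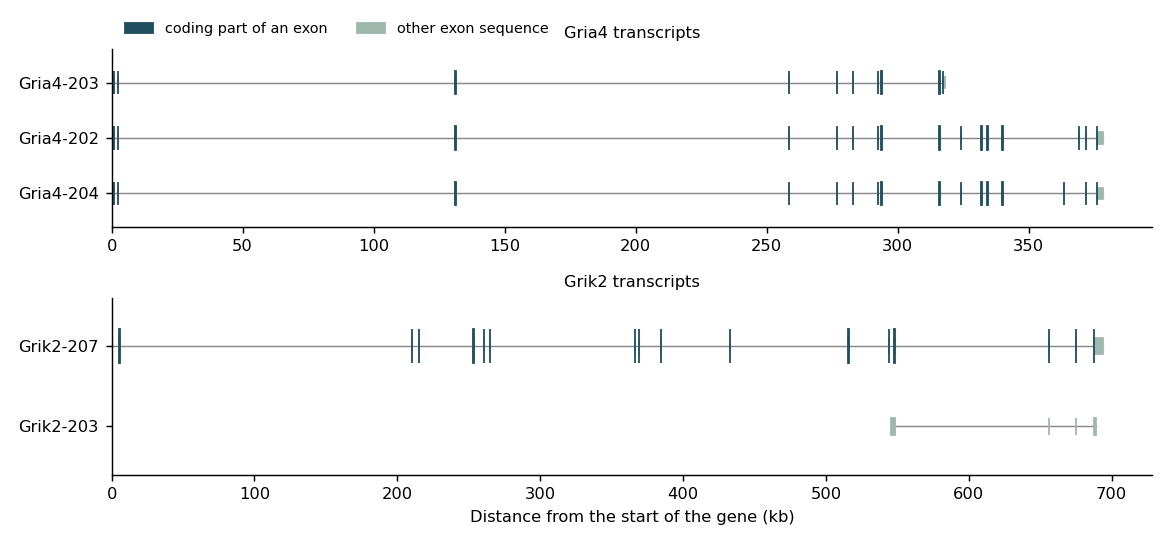
Exons of the listed Gria4 forms and of the main Grik2 forms along each gene (horizontal axis, distance from the gene start in kb), with coding parts tall and dark and other exon sequence low and pale, outlines widening the thinnest. Gria4-203 stops short of the later coding exons of Gria4-202 and Gria4-204, and Grik2-203 covers only the end of Grik2 and has no coding part.

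The other AMPA receptor subunits were at a few fragments a library. Gria1 measured 0.265, 0.453 and 0.609 FPKM in the controls and 0.421, 0.104 and 0.365 with SCF, from 2 to 15 fragments. The groups overlapped, and the log2 fold change was -0.16 (SE 0.19, adjusted p = 0.771, limma). Gria2, read from Gria2-205 alone, measured 0.684, 0.351 and 0.210 against 0.408, 0.268 and 0.269 FPKM, from 2 to 5 fragments (log2 fold change -0.09, SE 0.19, adjusted p = 0.864, limma). For neither gene did the files allow a statement about the full mRNA at this depth.

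Gria3 measured 0.310, 0.866 and 1.003 FPKM in the controls and 0.480, 0.237 and 0.0 with SCF. The groups overlapped through NMDA + PBS replicate 1 (log2 fold change -0.47, SE 0.25, adjusted p = 0.560, limma). Its fragments numbered 5, 14 and 18 in the controls and 6, 3 and 0 with SCF, and the count of 0 allows up to 3.69 fragments (exact 95% Poisson limit). Most came from Gria3-208, with 74.6% of the summed FPKM. Gria3-205 had 3, 4 and 3 fragments in the controls and 0 in each NMDA + SCF library (unadjusted p = 0.0246, adjusted p = 0.591, limma), counts too low for a fold.

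Among the kainate receptor subunits that form channels on their own, Grik2 had the largest difference, and it followed the transcript list. Grik2 measured 4.51, 8.56 and 8.39 FPKM in the controls and 4.34, 4.90 and 3.36 with SCF, from 77 to 235 fragments. The list B controls were above every list A library, while the list A control lay among the NMDA + SCF libraries. The log2 fold change was -0.62 (SE 0.30, unadjusted p = 0.0783, adjusted p = 0.545, limma) over the 6 libraries and -0.10 within list A. Among 14013 genes with a mean of at least 1 FPKM, 17.9% had both list B libraries above all list A libraries. The protein-coding Grik2-207 (1.43, 3.84 and 3.27 FPKM in the controls, 1.80, 2.59 and 1.503 with SCF) and the retained intron form Grik2-203 (2.42, 3.97 and 5.00, then 2.54, 2.30 and 1.85) both showed this.

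Grik3, with list A values alone, measured 3.96 FPKM in the control and 4.78, 3.78 and 3.802 with SCF, from 121 and then 147, 118 and 118 fragments. The control lay within the NMDA + SCF range, and no test is possible. This was the only one of the 9 genes read from a single full-length coding transcript at more than 100 fragments a library.

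Grik1, the kainate subunit of OFF bipolar cells, measured 0.438, 1.15 and 0.125 FPKM in the controls and 0.577, 0.561 and 0.646 with SCF, from 2 to 15 fragments. The controls spread on both sides of the NMDA + SCF libraries (log2 fold change 0.07, SE 0.28, adjusted p = 0.938, limma). The fragments were divided over Grik1-206 with 40.9% of the summed FPKM, Grik1-210 with 32.0% and the retained intron form Grik1-208 with 27.1%.

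Of the partner subunits, Grik4 measured 0.150, 0.342 and 0.230 FPKM in the controls and 0.297, 0.293 and 0.147 with SCF, from 3 to 8 fragments (log2 fold change 0.01, SE 0.14, adjusted p = 0.989, limma). Grik5 measured 9.10, 8.64 and 8.06 FPKM in the controls and 4.11, 10.1 and 8.40 with SCF (log2 fold change -0.24, SE 0.32, adjusted p = 0.792, limma). A single library, NMDA + SCF replicate 1 with 16 fragments, lay below the rest, and without it the log2 fold change was 0.09. Grik5-206 held 46.2% of the summed FPKM and Grik5-203 40.9%. Grik5-206 did not overlap between the groups, at 4.34, 4.29 and 4.86 FPKM in the controls and 2.32, 3.92 and 2.63 with SCF (unadjusted p = 0.0985, adjusted p = 0.613, limma). Grik5-203 overlapped, at 2.51, 3.69 and 3.03 against 1.43, 4.57 and 4.60 FPKM. The high place of Grik5 among the subunits rests on such forms of 818 and 880 bases with 4 to 19 fragments a library, since FPKM divides by length. Grik5-204, which list A lacks, stood at 5.53 and 0.990 FPKM in the list B controls.

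**Figure D4:**
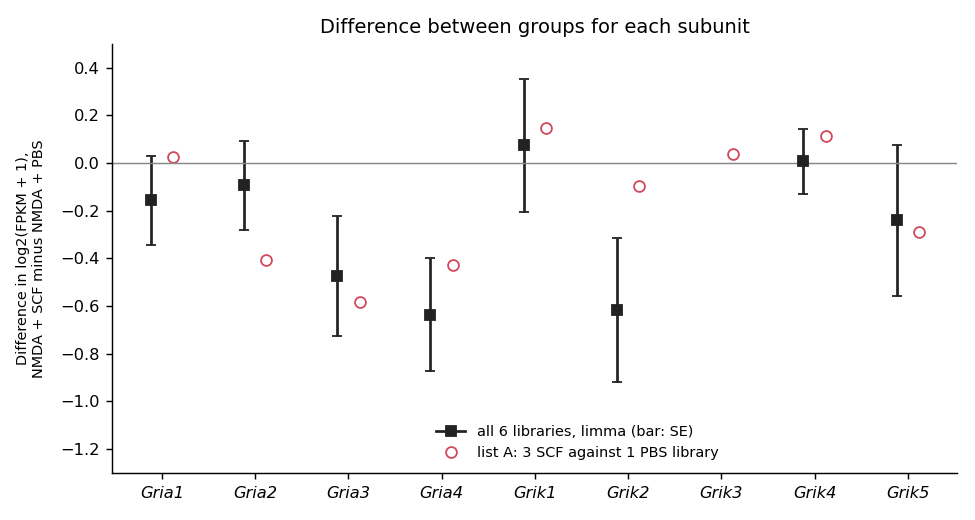
Difference in log2(FPKM + 1) between NMDA + SCF and NMDA + PBS for each subunit (vertical axis), as squares with SE bars for all 6 libraries on the transcripts in all files, and as open circles for the 4 list A libraries on all list A transcripts. For Grik2 the difference is -0.62 over 6 libraries and -0.10 within list A, and for Gria4 it is -0.64 and -0.43.

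Of 20 single transcripts of these genes with a value above 0, none passed an adjusted p of 0.05, as for 0.0% of all transcripts. In 6 of the 20, every NMDA + SCF library was below every control, against 6.79% of all transcripts. Of these, 3 (Gria4-203, Gria3-205 and Grik2-210) had an unadjusted p of at most 0.05, and none was higher at that threshold, against 4.57% of all transcripts lower and 3.41% higher. Grik2-210 rested on 1 fragment in each control and 0 in each NMDA + SCF library. Gria3-205 and Gria3-207, of the same gene, were also among the 6 at a few fragments. Gria3-207 had 1, 1 and 3 fragments in the controls and 0 in each NMDA + SCF library. Grik1-208, another of the 6, had 2, 6 and 2 in the controls and 1 in each NMDA + SCF library. Such counts are too low to read as a shift of these genes.

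Summed over subunits, the AMPA receptor total was 7.67, 8.76 and 11.1 FPKM in the controls and 5.54, 4.79 and 5.68 with SCF. The groups did not overlap, with a difference of -0.67 on the log2(FPKM + 1) scale (exact permutation test, two-sided, p = 0.1, the smallest that 3 against 3 libraries allow, adjusted p = 0.686 over 12 tests). Gria4 made up 80.9 to 83.6% of this sum in the controls and 76.4 to 88.8% with SCF. These shares depend on the transcripts listed, since the sum holds no coding transcript of Gria2 or Gria3. With every list A transcript counted, the AMPA total was 10.3 FPKM in the control and 7.77, 6.37 and 6.75 with SCF. Gria4 was then 64.3% of it in the control and 57.3, 69.8 and 76.3% with SCF, and Gria2 was 25.0% and 31.1, 24.9 and 18.3%. The kainate total without Grik3 was 14.2, 18.7 and 16.8 FPKM in the controls and 9.32, 15.9 and 12.6 with SCF, and overlapped (difference -0.39, exact permutation p = 0.2, adjusted p = 0.686).

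The kainate share of both sums was 64.4 ± 3.96% in the controls and 69.5 ± 7.08% with SCF (SD, n = 3 each, exact permutation p = 0.4, adjusted p = 0.686). In list A with Grik3, the share was 63.8% in the control and 64.9, 75.6 and 70.8% with SCF. Grik4 and Grik5 together took 54.2 ± 9.51% of the kainate sum in the controls and 60.3 ± 11.4% with SCF (exact permutation p = 0.6, adjusted p = 0.8). None of the 12 totals and shares could pass an adjusted p of 0.05 in a design of this size.

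**Figure D5:**
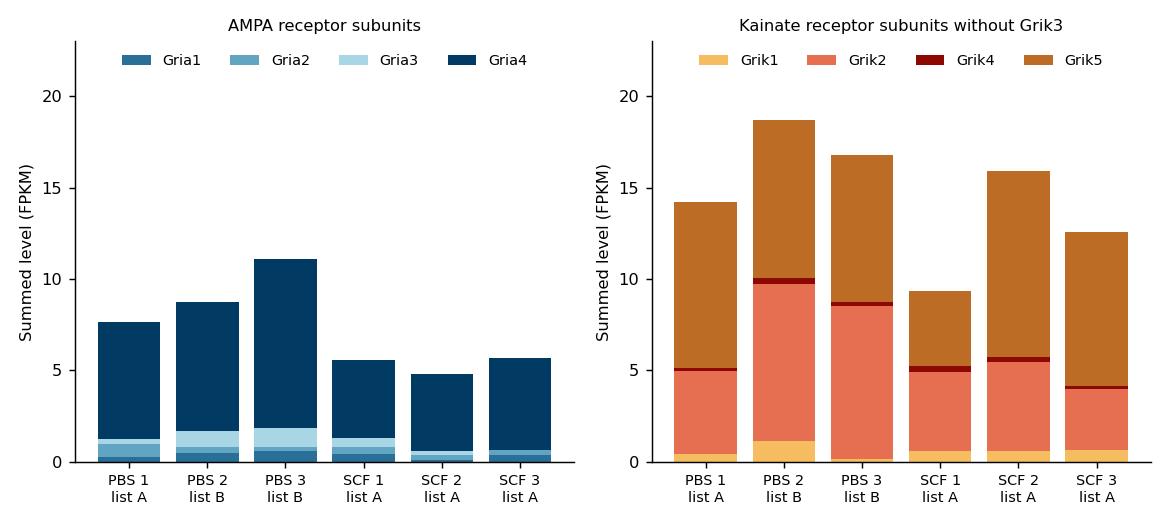
Summed FPKM of the AMPA receptor subunits (left) and of the kainate receptor subunits without Grik3 (right) in each library (vertical axes), stacked by gene, with the transcript list under each bar. The AMPA sum is 7.67 to 11.1 in NMDA + PBS and 4.79 to 5.68 in NMDA + SCF, and Gria4 is its largest part in every library.

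The proteins that accompany these receptors were read from a list of 31 genes, of which 29 could be tested and Cacng5 and Cacng7 could not. None passed an adjusted p of 0.05 (0.0% of all genes). At an unadjusted p of at most 0.05, 1 was lower (Nptx1) and 1 higher (Nptx2), against 4.9% of all genes lower and 4.33% higher, and the median log2 fold change was 0.04 against -0.01 over all genes. Every NMDA + SCF library was above every control for 4 genes of the list (against 7.63% of all genes) and below for none. These were Nptx2 and, named after their values were seen, Cnih2, Shisa8 and Shisa9, which encode auxiliary subunits of AMPA receptors. The log2 fold changes of Cnih2, Shisa8 and Shisa9 were 0.79, 0.76 and 0.29 over the 6 libraries. Within list A the differences were 0.25, 0.14 and 0.39. For Cnih2 and Shisa8 the larger gap thus came from the list B controls. The list's most abundant genes were Nsf, an ATPase that takes apart membrane fusion complexes and binds Gria2, at 314 ± 17.5 FPKM (SD, n = 6), and Dlg4, the scaffold protein PSD-95, at 119 ± 24.2 FPKM.

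Nptx2, a secreted pentraxin that clusters AMPA receptors, followed at 87.2 ± 21.3 FPKM. It measured 92.9, 64.2 and 57.2 FPKM in the controls and 96.3, 108 and 105 with SCF (log2 fold change 0.55, SE 0.21, unadjusted p = 0.0360, adjusted p = 0.536, limma). No control reached the lowest NMDA + SCF library, and the list A control was close to the lowest NMDA + SCF library, with a difference of 0.14 within list A. Nptx1, its paralog, was listed at 0 in all 4 list A libraries and at 54.4 and 47.3 FPKM in the 2 list B controls, from a transcript that both lists hold (unadjusted p = 0.0317, adjusted p = 0.536, limma). Its values followed the transcript list and not the treatment. Without NMDA + PBS replicate 1, when list and treatment cannot be told apart, it had an adjusted p = 0.000176.

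The genes whose pattern over the 6 libraries was most like the AMPA sum, by root mean square difference of centred log2(FPKM + 1) among 7019 genes of at least 5 FPKM, were Gm2223 (0.0522), Snrpb2 (0.0852) and Rtn2 (0.0937), against a median of 0.561. Those most like the kainate sum were B230369F24Rik (0.105), Paxip1 (0.106) and Lrrc27 (0.107), against a median of 0.491.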

How the data were processed

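The members and gene lists were chosen with earlier results of these data known. Libraries were made from oligo (dT)-selected mRNA, and the authors deposited FPKM per transcript, without pooling. The aligner and the way reads were divided among overlapping transcripts are not given in the sources used here. The submitters' processing notes name mm9, but 98.2% of the 63313 Ensembl transcripts had the positions of GENCODE M21 (GRCm38). From a deposited table of read counts, the clean reads per library (44925938 to 48783182) were used and 6 columns were not. Unnamed assembled transcripts (8.85 to 11.4% of FPKM) were left out.

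Gene values are sums of FPKM over those of the 46933 Ensembl transcripts common to both lists that belong to the gene. Groups, 3 libraries each, came from sample titles. All 6 libraries were fitted on log2(FPKM + 1) with limma 3.58.1 in R 4.3.3 (variance trend, condition only, no filter except genes at 0 throughout), and p-values were adjusted over 25202 genes, or 45261 transcripts. The method was tested on simulated data that held no difference between the transcript lists, so the effect of the list on the fit was not tested. Totals, shares and neighbours in level were compared by exact permutation (scipy 1.17.1). Since Grik3 had no transcript in both lists, 7 neighbouring pairs were tested. A symbol with several gene IDs was read from that with the highest mean. FPKM times length was a whole number of fragments (within 0.05, or the rounding of the file) for 98.4 to 98.5% of values, which gave the depths. Intervals and limits cover counting error only. Named genes are the 9 members, listed accompanying genes with an unadjusted p of at most 0.05 or among the 3 most abundant, and the 3 genes most like each sum. Transcripts named hold at least 10% of a gene's FPKM or are in one list, and Gria3-207, Grik2-210 and Gria4-204 were added after their values were seen. Alternatives were a pseudocount of 0.1, a filter at 1 FPKM, other scalings and thresholds, all listed or only protein-coding transcripts, list A alone, voom on recovered fragments, a replicate block and each library left out.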

Additional observations from a re-analysis of the deposited data

How the results depend on the processing

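No subunit passed an adjusted p of 0.05 under any alternative. Without single libraries, the subunits at an unadjusted p of at most 0.05 numbered 0 to 3 (Gria3, Gria4 and Grik2 without NMDA + PBS replicate 1, Gria4 without replicate 2, none without any of the others), the accompanying genes 0 to 6, and the transcripts 0 to 3. The subunits numbered 2 with upper quartile scaling, median-of-ratios scaling, all listed transcripts and voom on recovered fragments (Gria4 in each), and the accompanying genes 1, 1, 2 and 4. By the study's thresholds the accompanying genes called were 0 to 1 without single libraries, the 1 being Nptx1. Deviations from the group means were not correlated between libraries of the same replicate number (-0.05, -0.05 and -0.08). Whether the libraries were paired cannot be told from this, since the controls also differ by transcript list. With the replicate block, the subunits numbered 0, the accompanying genes 1 and the transcripts 0, and Gria4 had an adjusted p = 0.658.

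Gria4, Gria3 and Grik2 kept a negative sign throughout, with Gria4 between -0.74 and -0.43, Grik2 between -0.88 and -0.10, and Gria3 between -2.20 (voom on recovered fragments) and -0.33, with -1.49 at a pseudocount of 0.1. The list A value of Gria3 in that range, -0.58, counts every list A transcript, among them Gria3-204 with 1 fragment in the control. Over the transcripts in both lists, the difference of Gria3 within list A was -0.098, outside that range. Signs changed for Gria1 (0.027 within list A, but -0.25 without NMDA + PBS replicate 1 to -0.044 without NMDA + SCF replicate 2, and -0.69 with voom), Gria2 (-0.20 to 0.039 without single libraries, positive without NMDA + PBS replicate 1, and 0.58 with all listed transcripts, where the list B controls lack Gria2-204), Grik1 (-0.14 to 0.33 without single libraries, negative without NMDA + PBS replicate 3), Grik5 (-0.47 to 0.093 without single libraries, positive without NMDA + SCF replicate 1) and Grik4 (-0.046 to 0.065 without single libraries, negative without NMDA + PBS replicate 1 or NMDA + SCF replicate 1 or 2, -0.014 with upper quartile and -0.0036 with median-of-ratios scaling). The kainate share changed by -0.43 percentage points with all listed transcripts, which add Grik3 to no list B library. Without single libraries the AMPA total differed by -0.78 to -0.54, the kainate total by -0.56 to -0.21 and the kainate share by 1.36 to 8.42 percentage points. A filter at 1 FPKM left Gria4, Grik2 and Grik5 to test. The order of levels within each group or list A had too few libraries to pass a threshold. Depth, with under 20 fragments a library for Gria1, Gria3, Grik1, Grik4 and the shared form of Gria2, limits what these can show.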
